A study of Mus musculus with 8 samples.

Results

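The heat shock proteins are described here by 10 genes, namely Hspa1a, Hspa1b, Hspa8, Dnajb1, Hsph1, Hsp90aa1, Hspb1, Bag3, Hspd1 and Hspe1. They were chosen by gene name in a table of 48607 assembled loci, where they lie on 9 loci because Hspa1a and Hspa1b share 1. All 9 loci were among the 20506 that reached 1 FPKM (fragments scaled to a length for the locus and to the library's mapped fragments) in at least 3 libraries. In the whole aorta, 0 of the 9 loci passed the test for a difference between ApoE-/- and NPRC-/-ApoE-/- mice, whether the libraries were grouped by title or by the separate genotype entry, where edgeR also called 0% of all 20506 loci. The library titled ApoE-/- 2 was the highest of all 8 for 7 of the 9 loci, and the stress-inducible Hspa1a and Hspa1b ranged 5.12-fold over the 8 libraries. By contrast, 5 loci (Bag3, Hsp90aa1, Hspd1, Hspe1 and Hspa8) varied less, with an SD on the scale of log2 CPM (counts scaled to library size) above that of only 23.7 to 39.0% of the loci tested.

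The study asked how loss of natriuretic peptide receptor C (NPRC, encoded by Npr3) changes gene expression in the atherosclerotic aorta. All mice lacked ApoE, a lipoprotein whose loss makes mice prone to atherosclerosis, and were fed a Western diet, for 12 weeks by the study's methods. The ApoE-/- mice of the study were males. NPRC-/-ApoE-/- mice also carried a CRISPR frameshift in exon 1 of Npr3, made in the C57BL/6 background and present in every cell of the body. Each library was made from the poly(A) RNA of an entire aorta. By title, 5 libraries were ApoE-/- (1 to 5) and 3 were NPRC-/-ApoE-/- (1 to 3), while the methods name 5 mice in each group. The genotype entry of each sample named the other genotype for 4 of the 8 libraries, namely ApoE-/- 4 and 5 and NPRC-/-ApoE-/- 1 and 2. The heat shock loci are therefore compared by title and by genotype entry, which again sets 5 libraries against 3. No label ties a library to an individual mouse, so the tests measure the spread between these libraries.

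Total counts were 62969165 to 86693276 per library, and each heat shock locus had at least 895 counts in every library. Npr3 had 0.62 to 1.69 FPKM, with a log2 fold change of 0.10 (SE 0.28) by title and 0.16 by genotype entry. A frameshift need not remove the RNA, so this level does not check either label. Markers of the aortic wall were abundant, with Myh11, the smooth muscle myosin, at 109 to 324 FPKM and Vwf of the endothelium at 27.0 to 41.6 FPKM. Brown fat RNA was present as well, with Ucp1, the uncoupling protein of brown fat, at 71.8 to 343 FPKM. In bulk tissue, fewer cells of a type and less RNA per cell cannot be told apart.

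Heat shock proteins are molecular chaperones, which hold unfolded proteins, refold them or pass them on for degradation. HSP70 proteins bind exposed stretches of a client and release them in an ATP cycle that J-domain proteins start and nucleotide exchange factors such as HSP110 and the BAG proteins complete. Heat, oxidants and mechanical strain release heat shock factor 1 from chaperones, and the factor then binds heat shock elements in the promoters of inducible members.

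Hspa1a and Hspa1b, the inducible HSP70 genes, are neighbouring copies on the minus strand of chromosome 17 (GRCm38, GENCODE M21), at chr17:34969190-34972156 and chr17:34956436-34959238. Each has 1 exon. Their coding sequences, of 1923 and 1926 bases, were 99.6% identical outside a gap of 3 bases, with a longest identical stretch of 638 bases. The deposited locus spans both genes (34956433 to 34972174), so its value is that of the pair and the share of each copy was not analysed here. Their promoters also differed at only 4 of 300 bases (RefSeq, GRCm38.p6). The stretches of 160 bases before the 2 start sites lie at chr17:34972157-34972316 and chr17:34959239-34959398 on the minus strand. They are shown because both hold the same match to the heat shock element letters GAANNTTC, in capitals. Whether the match is functional was not tested.
Hspa1a: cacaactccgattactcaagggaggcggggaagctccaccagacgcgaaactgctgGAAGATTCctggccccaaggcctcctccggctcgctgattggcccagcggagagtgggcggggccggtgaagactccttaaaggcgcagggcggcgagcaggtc
Hspa1b: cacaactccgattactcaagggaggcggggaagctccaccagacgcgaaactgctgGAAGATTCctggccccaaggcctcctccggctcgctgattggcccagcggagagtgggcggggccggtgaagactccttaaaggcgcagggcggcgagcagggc

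Heat shock elements are alternating blocks of GAA and TTC with 2 free bases between blocks. The forms searched on both strands were the 2-block GAANNTTC and TTCNNGAA and the 3-block forms that add 1 more block to either, so that every 3-block match also holds 2-block matches. RefSeq gave windows from 250 bases before to 50 after the start for 8 of the 10 genes (all but Hspa8 and Hsp90aa1). These genes had 11 windows, as some have more than 1 start site. A 2-block form was present in 8 of the 11 windows, against 15.1% of all 32851 windows. A 3-block form was present in 4 of the 11 (those of Hsph1, Hspe1 and Hspd1), against 0.603% of all windows. These 4 windows do not hold 4 separate sites. The Hspe1 and Hspd1 matches are the same bases read on opposite strands, and the Hsph1 windows overlap and share their matches. Both member counts therefore hold some sites more than once. Dnajb1 held no match in its window, which says only that these letters are not in it. Bag3 held a 2-block match after its start site. The 3-block match of Hsph1 also lay after its start sites, so the Hsph1 stretch below shows only a 2-block match. The following 3 stretches show the matches of the other genes before the RefSeq start site, with the blocks and the bases between them in capitals. In GENCODE the minus-strand genes Hsph1 and Hspd1 start at 149636376 and 55088243, so their matches lie after those starts. Hspb1 is shown at chr5:135887789-135887848 on the plus strand, the divergent start region of Hspe1 and Hspd1 at chr1:55088053-55088082 in the direction of Hspe1, and Hsph1 at chr5:149636352-149636381 on the minus strand.
Hspb1: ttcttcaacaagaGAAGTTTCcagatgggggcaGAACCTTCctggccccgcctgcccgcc
Hspe1 and Hspd1: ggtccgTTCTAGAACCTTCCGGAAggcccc
Hsph1: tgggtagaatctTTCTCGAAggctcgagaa
The Hspe1 and Hspd1 stretch carries 2 overlapping 3-block matches, from 89 to 72 bases before the Hspe1 start.

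In FPKM, Hspb1 had the highest mean level over the 8 libraries, at 66.1 ± 29.4 FPKM (SD, n = 8). It was followed by Hspa8 at 44.6 ± 9.44 FPKM and Hsp90aa1 at 18.7 ± 3.13 FPKM. Hspb1 was above Hspa8 in 6 of 8 libraries, Hspa8 above Hsp90aa1 in 8 of 8 and Hsp90aa1 above the Hspa1a and Hspa1b locus in 6 of 8. The next 3 levels lay close together, with means of 11.0 ± 7.28 FPKM for Hspa1a and Hspa1b, 10.0 ± 6.37 FPKM for Dnajb1 and 9.72 ± 1.95 FPKM for Hspe1. The order of these means was not that of most libraries, since Hspa1a and Hspa1b were above Dnajb1 in 3 of 8 libraries and Dnajb1 above Hspe1 in 1 of 8, ApoE-/- 2. Their mean levels lay within 1 SD of each other. Hspd1 (8.54 ± 1.69 FPKM) was below Hspe1 in 6 of 8 libraries and above Hsph1 in 8 of 8. Hsph1 (6.01 ± 1.93 FPKM) and Bag3 (5.32 ± 0.877 FPKM) were the lowest. This order of loci depends on the length by which each was scaled, which was not analysed here. The order by counts was another. Hspa8 had 28960 to 54310 counts per library, Hspb1 4094 to 13848 and Bag3 7899 to 12282.

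**Figure D1:**
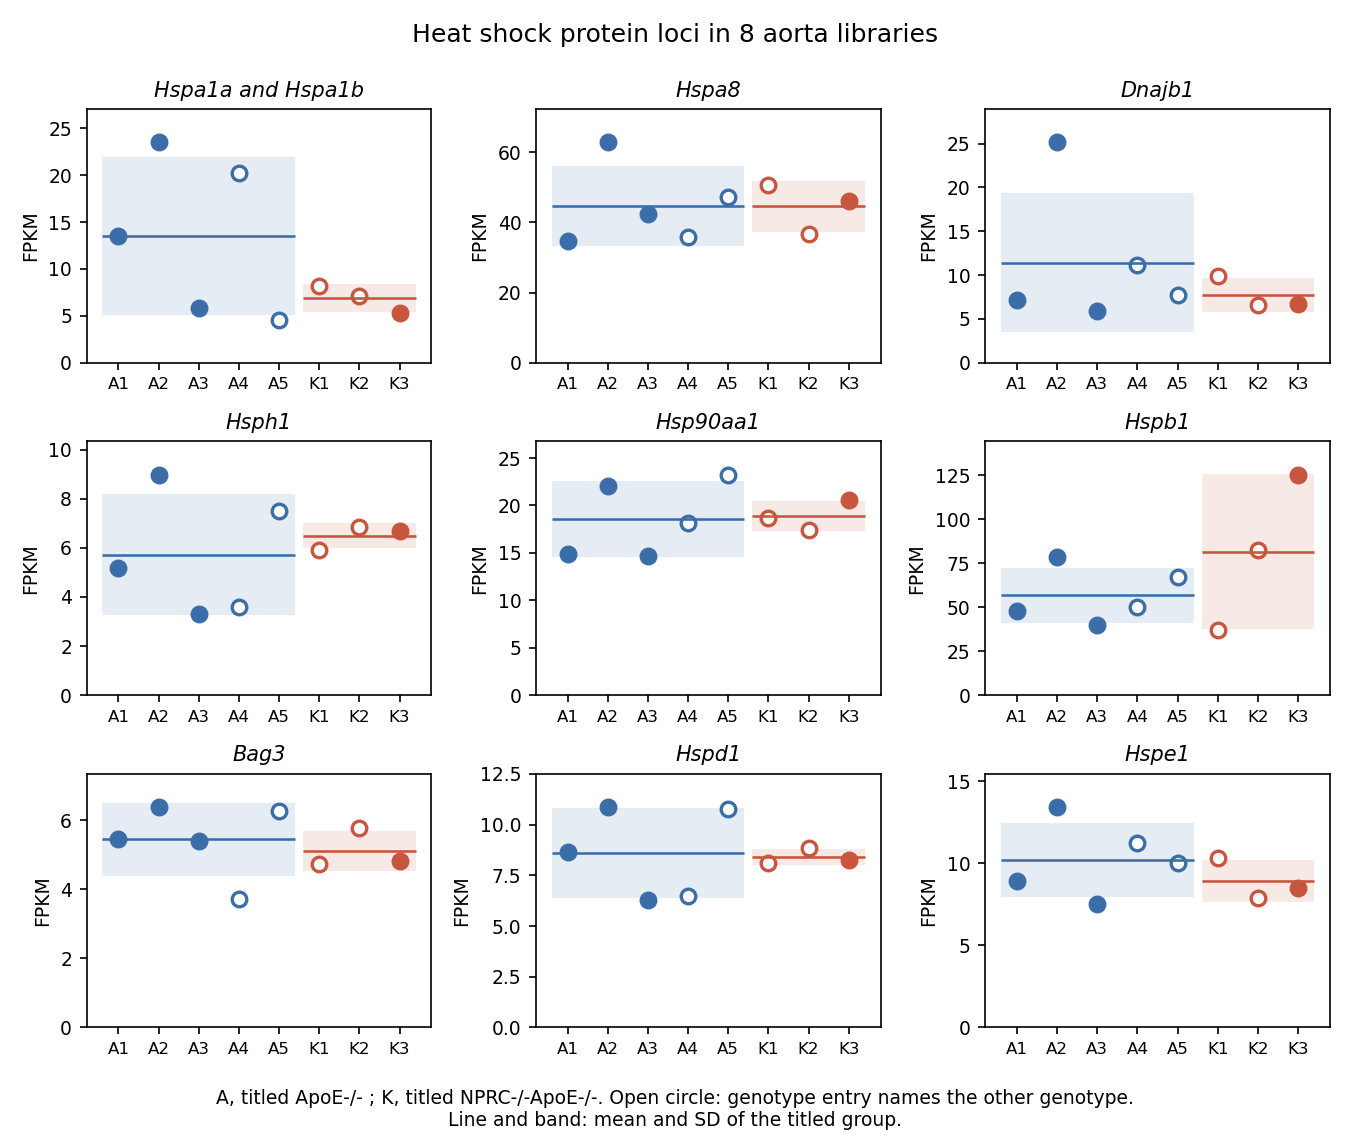
Level in FPKM (y axis, from 0) of the 9 heat shock protein loci in each of 8 libraries (x axis; A, titled ApoE-/-; K, titled NPRC-/-ApoE-/-). Open circles are libraries whose genotype entry names the other genotype, and lines and bands are the mean and SD of the titled group; the groups overlap in all 9 panels and ApoE-/- 2 is the highest point in 7.

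The inducible HSP70 locus had the widest spread. Hspa1a and Hspa1b together were at 13.5, 23.5, 5.83, 20.2 and 4.60 FPKM in ApoE-/- 1 to 5, and at 8.21, 7.14 and 5.29 FPKM in NPRC-/-ApoE-/- 1 to 3. Of the 8 libraries, 3 titled ApoE-/- (1, 2 and 4) lay above every NPRC-/-ApoE-/- library, while ApoE-/- 5 was the lowest of all, so the groups overlapped. The mean was 13.5 ± 8.42 FPKM (SD, n = 5) against 6.88 ± 1.48 FPKM (n = 3), a log2 fold change of -0.96 (SE 0.53, 95% interval -2.16 to 0.23, edgeR quasi-likelihood test, Benjamini-Hochberg adjusted p = 0.443). By genotype entry the difference was -0.14 (SE 0.60, edgeR adjusted p = 1). In that grouping ApoE-/- 4 (20.2 FPKM), ApoE-/- 5 (4.60 FPKM) and NPRC-/-ApoE-/- 1 and 2 changed group. Without ApoE-/- 2 the difference by title was -0.69, and leaving out each library in turn by genotype entry gave values from -1.18 (without ApoE-/- 4) to 0.27 (without ApoE-/- 2). The SD of this locus in log2 CPM was larger than that of 93.5% of the loci tested.

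Hspa8, the constitutive cytosolic HSP70, was at 34.7, 62.9, 42.4, 35.8 and 47.3 FPKM in ApoE-/- 1 to 5 and at 50.8, 36.7 and 46.2 FPKM in NPRC-/-ApoE-/- 1 to 3. The highest value was again that of ApoE-/- 2, and both groups overlapped below it. Its log2 fold change was 0.03 (SE 0.22, 95% interval -0.46 to 0.51, edgeR adjusted p = 0.972) by title and -0.05 (SE 0.23) by genotype entry. The deposited Hspa8 locus on the plus strand of chromosome 9 runs from 40685828 to 40810087 and also holds Clmp and 3 small nucleolar RNAs. Clmp ends 15664 bases before Hspa8 starts, and the count of the locus covers both genes.

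Dnajb1, the J-domain protein that delivers clients to inducible HSP70, was at 7.16, 25.2, 5.92, 11.2 and 7.71 FPKM in ApoE-/- 1 to 5. In NPRC-/-ApoE-/- 1 to 3 it was at 9.91, 6.54 and 6.74 FPKM. ApoE-/- 2 stood apart, with more than any other library, and the other 7 libraries of both groups overlapped. The log2 fold change was -0.54 (SE 0.45, 95% interval -1.56 to 0.49, edgeR adjusted p = 0.615) by title and -0.31 (SE 0.48) by genotype entry. Most of it rested on 1 library, since it was -0.05 (SE 0.25) by title without ApoE-/- 2, and 0.24 by genotype entry without it.

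Hsph1, the HSP110 protein that exchanges the nucleotide of HSP70, was at 5.20, 8.99, 3.32, 3.59 and 7.49 FPKM in ApoE-/- 1 to 5 and at 5.93, 6.87 and 6.69 FPKM in NPRC-/-ApoE-/- 1 to 3. The NPRC-/-ApoE-/- libraries lay within the range of the ApoE-/- libraries, which held both the highest and the lowest values. The log2 fold change was 0.23 (SE 0.29, 95% interval -0.43 to 0.89, edgeR adjusted p = 0.75) by title, 0.44 (SE 0.24) without ApoE-/- 2, 0.12 without ApoE-/- 3, and -0.00 (SE 0.31) by genotype entry. ApoE-/- 4, in which Hspa1a and Hspa1b were the second highest, had the second lowest Hsph1.

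Bag3, a co-chaperone that links HSP70 to small heat shock proteins and to the removal of strained muscle proteins, varied little. It was at 5.46, 6.38, 5.40, 3.72 and 6.26 FPKM in ApoE-/- 1 to 5 and at 4.73, 5.76 and 4.82 FPKM in NPRC-/-ApoE-/- 1 to 3. Only ApoE-/- 4 was below every NPRC-/-ApoE-/- library, and the groups overlapped. The deposited Bag3 locus also holds 2610306O10Rik, and its count covers both genes. The log2 fold change was -0.06 (SE 0.17, 95% interval -0.44 to 0.31, edgeR adjusted p = 0.884) by title and -0.15 (SE 0.17) by genotype entry.

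Hsp90aa1, the inducible cytosolic HSP90, had a narrow range. It was at 14.9, 22.1, 14.6, 18.1 and 23.3 FPKM in ApoE-/- 1 to 5 and at 18.6, 17.4 and 20.6 FPKM in NPRC-/-ApoE-/- 1 to 3. By title the second group lay inside the first, with a log2 fold change of 0.05 (SE 0.17, 95% interval -0.33 to 0.44, edgeR adjusted p = 0.914). By genotype entry the 3 libraries entered as NPRC-/-ApoE-/- (ApoE-/- 4, ApoE-/- 5 and NPRC-/-ApoE-/- 3) were 3 of the 5 highest, and the log2 fold change was 0.27 (SE 0.15, 95% interval -0.08 to 0.61, edgeR adjusted p = 1). This was the lowest exact permutation p of the 9 loci in either grouping, at 0.0714 (two-sided, 5 against 3 libraries, of which 0.036 is the smallest possible). The constitutive Hsp90ab1, which is no member, had far higher FPKM, at 137 to 184 FPKM.

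Hspb1, the small heat shock protein HSP27 that binds actin filaments in smooth muscle, was the locus with the largest difference in the opposite direction. It was at 48.1, 78.3, 40.1, 50.1 and 67.1 FPKM in ApoE-/- 1 to 5 and at 37.1, 82.5 and 125 FPKM in NPRC-/-ApoE-/- 1 to 3. NPRC-/-ApoE-/- 3 was the highest of the 8 libraries and NPRC-/-ApoE-/- 1 the lowest, so that the 3 libraries of the title spanned all the others. The log2 fold change was 0.58 (SE 0.36, 95% interval -0.24 to 1.39, edgeR adjusted p = 0.493) by title and 0.55 (SE 0.37, edgeR adjusted p = 1) by genotype entry. Single libraries moved it: by title it was 0.09 without NPRC-/-ApoE-/- 3 and 0.94 without NPRC-/-ApoE-/- 1 (edgeR adjusted p = 0.107), and by genotype entry 0.03 without NPRC-/-ApoE-/- 3.

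Hspd1 (HSP60) and Hspe1 (HSP10) form the chaperonin of mitochondria and are transcribed away from each other, with an overlap of 112 bases between the annotated genes. Hspd1 was at 8.66, 10.9, 6.30, 6.49 and 10.8 FPKM in ApoE-/- 1 to 5 and at 8.10, 8.87 and 8.28 FPKM in NPRC-/-ApoE-/- 1 to 3. Hspe1 was at 8.92, 13.4, 7.51, 11.2 and 10.0 FPKM and at 10.3, 7.89 and 8.50 FPKM in the same order. For both genes the NPRC-/-ApoE-/- libraries fell within the range of the ApoE-/- libraries. The log2 fold change of Hspd1 was 0.00 (SE 0.18, 95% interval -0.40 to 0.40, edgeR adjusted p = 0.997) by title and 0.02 (SE 0.18) by genotype entry. That of Hspe1 was -0.17 (SE 0.19, 95% interval -0.61 to 0.27, edgeR adjusted p = 0.716) by title and 0.08 (SE 0.20) by genotype entry. Processed pseudogenes resemble both genes. Among those listed as loci of their own, Hspd1-ps3 had 0.51 to 3.53 FPKM, Hspe1-ps5 2.59 to 6.47 FPKM and Hspe1-ps3 2.67 to 3.95 FPKM, and reads that such copies may take from Hspd1 or Hspe1 were not analysed here.

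**Figure D2:**
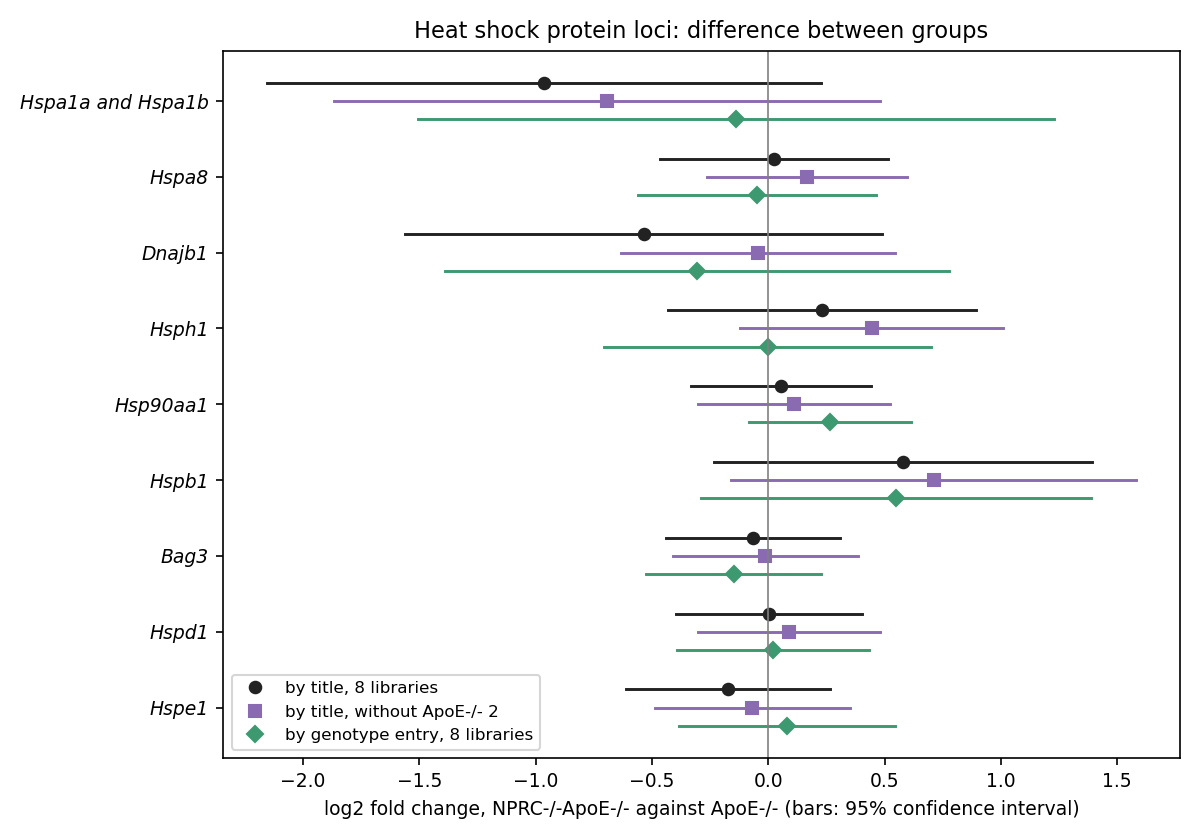
Log2 fold change of NPRC-/-ApoE-/- against ApoE-/- (x axis; 0 is no difference) of the 9 loci (y axis), with 95% confidence intervals from edgeR. Circles are the title grouping, squares the title grouping without ApoE-/- 2 and diamonds the genotype entry; every interval includes 0.

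By title, 0 of the 9 loci had an unadjusted p under 0.05 in edgeR, against 13.6% of all loci tested (6.51% higher and 7.13% lower in NPRC-/-ApoE-/-), and the groups overlapped in all 9, against 7.41% of loci without overlap. By genotype entry the count was also 0 of 9, against 1.31% of all loci (0.614% higher and 0.697% lower), with 1.2% of loci without overlap and none among the members. With Benjamini-Hochberg adjusted p under 0.05, edgeR called 0% of loci in both groupings. DESeq2 called 650 loci by title and limma on log2(FPKM + 1) called 2, with 0 members among either. By title 5 of the 9 loci were higher and 4 lower, with a median log2 fold change of 0.00, beside -0.01 over all loci tested. By genotype entry 4 were higher and 5 lower, with a median of -0.00, beside -0.00 over all loci. The 95% interval lay within 1 log2 unit of 0 for 6 of 9 loci in each grouping. The intervals of Hspa1a and Hspa1b, Dnajb1 and Hspb1 reached beyond a 2-fold difference in at least 1 direction.

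Over the single libraries, ApoE-/- 2 was the highest library for 7 of 9 loci by FPKM and by CPM, and by CPM for 11.1% of all loci tested. The other 2 maxima were those of Hsp90aa1 in ApoE-/- 5 and of Hspb1 in NPRC-/-ApoE-/- 3. ApoE-/- 3 was the lowest for 5 of 9 loci by FPKM and for 3 by CPM, beside 13.4% of all loci by CPM. On the log2 CPM scale, ApoE-/- 2 was above the mean of the 8 libraries by 1.45 for Dnajb1, 1.30 for Hspa1a and Hspa1b and 0.60 for Hsph1, while the excess was 0.47 for Hspa8, 0.32 for Hspd1 and 0.21 for Hsp90aa1. The excess was thus larger for Dnajb1, the Hspa1a and Hspa1b pair and Hsph1 than for the constitutive Hspa8. For all other loci it was smaller than for Hspa8, with 0.44 for Hspe1, 0.31 for Hspb1 and 0.23 for Bag3. The inducible Hsp90aa1 had the smallest excess, so inducible loci lay on both sides of Hspa8. ApoE-/- 4 resembled ApoE-/- 2 in part, with 1.20 for Hspa1a and Hspa1b and 0.39 for Dnajb1, but with -0.60 for Hsph1 and -0.43 for Bag3. In ApoE-/- 5, Hspa1a and Hspa1b were at -1.10 and Hsph1 at 0.30, and in NPRC-/-ApoE-/- 3, Hspb1 was at 1.12 and Hspa1a and Hspa1b at -0.73, so in these libraries the loci did not all go the same way.

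**Figure D3:**
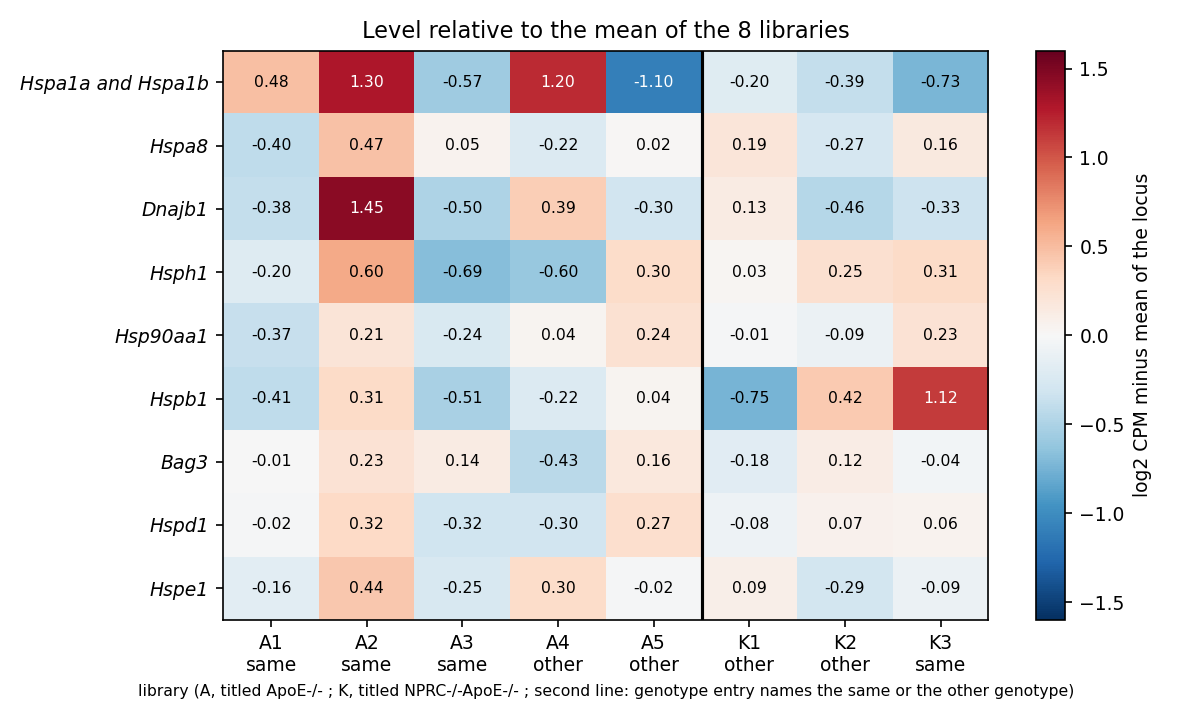
Log2 CPM minus the mean of the locus over 8 libraries (colour and printed value), for 9 loci (rows) and 8 libraries (columns; A, titled ApoE-/-; K, titled NPRC-/-ApoE-/-; the second line says whether the genotype entry names the same or the other genotype). The column of ApoE-/- 2 is above 0 in every row, from 0.21 for Hsp90aa1 to 1.45 for Dnajb1.

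Other RNAs also varied between these libraries. The summed level of 5 white fat markers was highest in ApoE-/- 2 (268 FPKM) and lowest in ApoE-/- 3 (58.4 FPKM), as was that of 5 brown fat markers (466 and 105 FPKM). The brown fat sum did not set ApoE-/- 2 apart. It was close to those of ApoE-/- 5 (455 FPKM), NPRC-/-ApoE-/- 1 (453 FPKM) and NPRC-/-ApoE-/- 2 (448 FPKM). The summed level of 7 lymphocyte markers was 20.0 FPKM in ApoE-/- 2 and 1.03 to 4.60 FPKM in the other libraries, with Ms4a1 listed at 0 in at least 1 library. Their part in the heat shock values was not tested. Immediate early genes, transcription factors and signalling genes that respond within minutes to many stimuli, were at a summed 498, 531 and 295 FPKM in ApoE-/- 2, 3 and 4 and at 129 to 163 FPKM in the other 5 libraries. The same 3 libraries did not all have high HSP70. ApoE-/- 3, with the highest Fos (105 FPKM), had 5.83 FPKM of Hspa1a and Hspa1b, and ApoE-/- 1, with 15.3 FPKM of Fos, had 13.5 FPKM.

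Few genes of the other chaperone families passed the unadjusted threshold, beside 13.6% of all loci tested by title and 1.31% by genotype entry. Of the HSP70 family (10 genes tested), HSP90 family (3), BAG family (5), HSP70 and HSP90 co-chaperones (13), subunits of the cytosolic chaperonin TRiC (8) and mitochondrial import and protease genes (8), 0 had an unadjusted p under 0.05 by title, and the median log2 fold changes were -0.04, 0.00, -0.19, -0.06, -0.25 and 0.04. By genotype entry the medians were 0.04, 0.09, -0.02, -0.01, 0.02 and -0.04 in the same order. The genes of these lists with the highest mean FPKM were Hspa5, the HSP70 of the endoplasmic reticulum (-0.07), Hsp90ab1 (0.07), Bag6 (-0.07), Cct5 (-0.27) and Clpp (0.03). All 8 TRiC subunits were lower by title, by -0.29 to -0.08, and 6 of 8 were higher by genotype entry. Among the co-chaperones, Fkbp5, a glucocorticoid-responsive HSP90 partner, was the 1 gene past the unadjusted threshold by genotype entry, with a log2 fold change of 1.19 there (edgeR adjusted p = 1) and 0.15 by title. It was at 4.71 FPKM in ApoE-/- 4 and at 0.68 to 3.28 FPKM in the others.

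Among the chaperone lists, the small heat shock proteins had the largest median difference by title. Of 5 genes tested besides Hspb1, 5 were higher in NPRC-/-ApoE-/- by title and 3 had an unadjusted p under 0.05, with a median log2 fold change of 0.64, against 6.51% of all loci on that side. Hspb7, a small heat shock protein of heart and muscle, was at 27.2, 22.9, 18.2, 23.0 and 21.6 FPKM in ApoE-/- 1 to 5 and at 41.7, 52.9 and 58.9 FPKM in NPRC-/-ApoE-/- 1 to 3. Its groups did not overlap, and the log2 fold change was 1.21 (SE 0.16, edgeR adjusted p = 0.132, the alternatives by title ranging from 1.78e-07 with DESeq2 to 1 by genotype entry). Hspb2 (0.89, SE 0.26, edgeR adjusted p = 0.267), whose locus also holds 2310030G06Rik, and Cryab, the lens and muscle chaperone alpha-B crystallin (0.50, SE 0.18, edgeR adjusted p = 0.31), did not overlap either. By title 3 of the 5 had groups without overlap, against 7.41% of all loci tested. Hspb6 and Hspb8 differed by 0.64 and 0.17, and Hspb3 was not tested. By genotype entry 4 of the 5 were higher and 1 lower, with a log2 fold change of 0.14 for Hspb7. There 0 passed the unadjusted threshold, against 1.31% of all loci, and 0 had groups without overlap, against 1.2%.

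Smooth muscle markers moved with them by title. All 10 were higher in NPRC-/-ApoE-/- and 9 had an unadjusted p under 0.05, against 6.51% of all loci on that side, with a median log2 fold change of 0.64, among them Smtn (0.99), Myh11 (0.84) and Cnn1 (0.66). By genotype entry 9 of 10 were higher, with a median of 0.21 and 0 past the unadjusted threshold. Their summed level was 1343 to 1793 FPKM in ApoE-/- and 1732 to 2962 FPKM in NPRC-/-ApoE-/-, with 2962 FPKM in NPRC-/-ApoE-/- 3, where Hspb1 was also highest. NPRC-/-ApoE-/- 1, with the lowest Hspb1, had 1732 FPKM of these markers and 41.7 FPKM of Hspb7. Macrophage markers went the other way, with 6 of 6 lower (median log2 fold change -1.03, C1qa -1.37 and Csf1r -0.93), as did fibroblast markers, with 6 of 6 lower (median -0.86, Dcn -0.84). By title 2 macrophage markers and 1 fibroblast marker passed the unadjusted threshold, against 7.13% of all loci on that side. By genotype entry 0 did, against 0.697% of all loci on that side, with medians of -0.16 and -0.09. Endothelial markers had a median of -0.14 by title and -0.05 by genotype entry, with Vwf at -0.09. Of 3 heart markers tested, Ryr2, a calcium channel that smooth muscle also has, was higher by 0.89, and Myh6 (-2.09) and Actc1 (-1.29) did not pass the unadjusted threshold. Myh6 and Myl7 were listed at 0 in at least 1 library. Skeletal muscle markers summed to 0.83 to 11.1 FPKM, with Acta1 at 1.23 (edgeR adjusted p = 0.556). The part of tissue composition in the small heat shock protein values was not tested.

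Among the regulators and the remaining stress genes, the immediate early genes held most of those past the unadjusted threshold by title. Of all loci tested, 13.6% passed it by title, 6.51% as higher and 7.13% as lower in NPRC-/-ApoE-/-. Hsf1, the factor that drives the heat shock response, was at 2.87 to 3.63 FPKM in ApoE-/- and 3.81 to 3.94 FPKM in NPRC-/-ApoE-/-, a log2 fold change of 0.30 (SE 0.11, edgeR adjusted p = 0.309) that was 0.04 by genotype entry. Of 14 J-domain genes, 1 passed it as higher (Dnajb5, 0.59) and 1 as lower (Dnajb14, -0.36), a share near that of all loci, with a median of -0.08. Of 12 endoplasmic reticulum chaperones, 11 were lower with a median of -0.15, and Pdia3, a disulfide isomerase, passed the unadjusted threshold (-0.49). The cold-inducible Rbm3 was lower (-0.52), as was Cirbp without passing it (-0.41). All 13 immediate early genes tested were lower (median -1.19), 8 of them past the unadjusted threshold, against 7.13% of all loci on that side. Fos was at -2.03, Atf3 at -0.83 and Jun at -0.70, with edgeR adjusted p of 0.255 or more. With DESeq2 by title the adjusted p was 0.0163 for Jun, 0.0356 for Fos and 0.0851 for Atf3. By genotype entry 0 of these genes passed the unadjusted threshold.

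**Figure D4:**
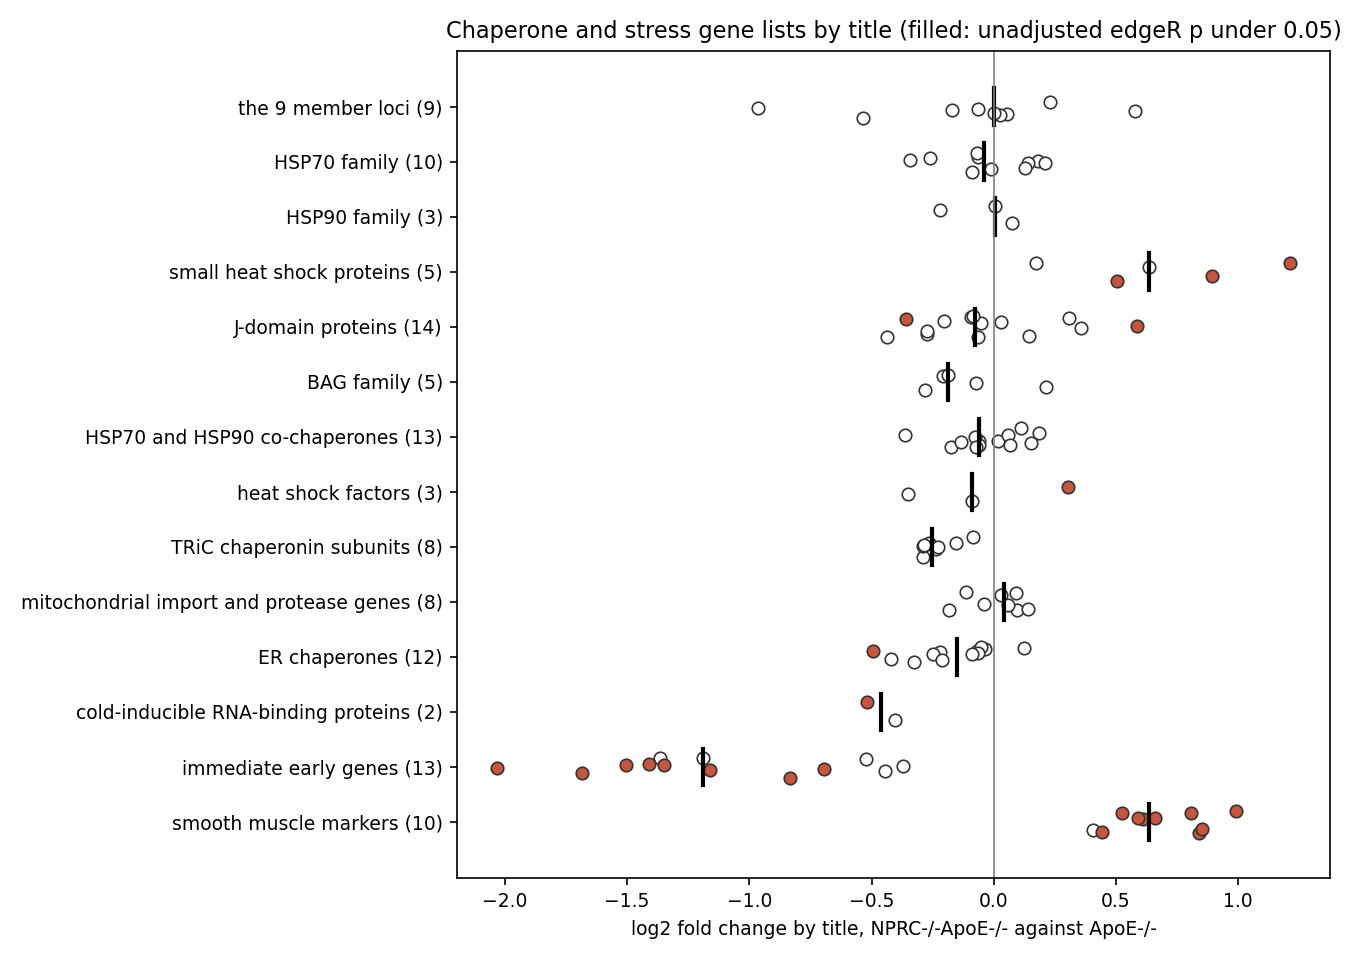
Log2 fold change by title, NPRC-/-ApoE-/- against ApoE-/- (x axis), of each tested gene (circle) in 14 rows (y axis, number of loci or genes in parentheses; genes in more than 1 list are drawn in each). Filled circles have an unadjusted edgeR p under 0.05 and vertical bars are list medians; the 9 member loci have a median of 0.00, the other small heat shock proteins of 0.64 and the immediate early genes of -1.19.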

How the data were processed

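Poly(A) RNA of entire aortas was sequenced by the authors, whose library kit marked strand. The submitters' notes name cutadapt 1.9, FastQC and build GRCm38. Reads were mapped by HISAT2 and loci assembled by StringTie (versions not given in the sources used here). The authors deposited raw counts and FPKM for each locus and library. FPKM scales to mapped fragments and to a length, and the length used for each locus was not analysed here. How the counts were made, and whether they used strand, is not given in the sources used here.

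The deposited counts of loci that reached 1 FPKM in 3 or more libraries entered edgeR 4.0.16 (R 4.3.3, TMM, quasi-likelihood test, Benjamini-Hochberg over 20506 loci), by title and by genotype entry. The biological coefficient of variation was 0.327. Log2 CPM used a prior count of 2. Exact permutation tests used scipy 1.17.1. Alternatives were DESeq2 1.42.0, limma 3.58.1 on log2(FPKM + 1 or 0.1), other scaling and filters, the replicate block, the 4 libraries without a label conflict, and each library left out. The fit was tested on simulated data. A gene with several loci was read at the locus with the most counts.

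The members and gene lists were chosen with earlier results of these data known. Named genes are the 10 members, up to 3 genes per direction and list with the smallest unadjusted p under 0.05 (otherwise the most abundant), Npr3, and the 5 loci most correlated with the members. Hspb3, Hspb6, Hspb8, Cirbp, Myh6, Myl7, Actc1, Ms4a1, Hspd1-ps3, Hspe1-ps3 and Hspe1-ps5 were named after their values were seen. The counts of no pair of libraries of a group differed by less than the sampling noise.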

Additional observations from a re-analysis of the deposited data

Results flagged for a closer look

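Dnajb1 in the library titled ApoE-/- 2, at 25.17 FPKM, lay far from the other libraries of its group. By title the nearest library was at 11.15 FPKM, a gap of 0.728 of the whole range of the 5 libraries, against a 95% critical value of 0.71 (Dixon). By genotype entry the nearest was at 9.91 FPKM, a gap of 0.793. Of 18 groups of 5 libraries examined, 2 were singled out this way, both by the same value, and chance does so in about 1 in 20 groups, or 0.9 here.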

How the results depend on the processing

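In every alternative run, 0 of the 9 heat shock loci had an adjusted p under 0.05. Of 162 values of the loci under alternatives to the title fit, 144 kept their direction, and the lowest adjusted p was 0.107 (edgeR, Hspb1 without NPRC-/-ApoE-/- 1). By genotype entry 66 of 81 kept it, with a lowest adjusted p of 0.858. The directions that turned belonged to differences near 0 or to values that rest on single libraries; the cause was not tested. Grouped by genotype entry, Hspa8 was at -0.05, Hspe1 at 0.08, Hsph1 at -0.00, Dnajb14 at 0.05 and Pdia3 at 0.03 (log2 fold change). Median-ratio scaling gave 0.01 for Hsph1 by genotype entry. Leaving out each library in turn by title, Bag3 ranged from -0.15 to 0.00, Hsp90aa1 from -0.04 to 0.14, Hspa8 from -0.06 to 0.18 and Hspd1 from -0.06 to 0.09. By genotype entry, Bag3 ranged from -0.29 to 0.02, Dnajb1 from -0.56 to 0.24, Hspa1a and Hspa1b from -1.18 to 0.27, Hspa8 from -0.14 to 0.08, Hspd1 from -0.12 to 0.18, Hspe1 from -0.02 to 0.22 and Hsph1 from -0.14 to 0.26.

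By title, 1 member locus had an unadjusted p under 0.05 in the 4 libraries without a label conflict (Hspb1), where the lone NPRC-/-ApoE-/- library was assumed to vary like the others, in the 6 libraries numbered 1 to 3 (Hspa1a and Hspa1b), without NPRC-/-ApoE-/- 1 (Hspb1) and without ApoE-/- 5 (Hspa1a and Hspa1b); leaving out 1 library gave 0 to 1. By genotype entry leaving out 1 library also gave 0 to 1 (Hsp90aa1, without ApoE-/- 2). Over all loci, 2797 had an unadjusted p under 0.05 by title, 269 by genotype entry and 4666 with no filter on low values, where more loci were tested. Leaving out 1 library gave 1332 (without NPRC-/-ApoE-/- 2) to 4431 (without NPRC-/-ApoE-/- 1) by title, and 184 (without NPRC-/-ApoE-/- 3) to 730 (without ApoE-/- 4) by genotype entry. DESeq2 called 650 loci at an adjusted p under 0.05, where edgeR called 0. Its calls included Hspb7 (DESeq2 adjusted p = 1.78e-07), Smtn (0.0102), Jun (0.0163), Cnn1 (0.0263), C1qa (0.035), Fos (0.0356) and Hspb2 (0.0486). The other genes named for an unadjusted p under 0.05 by title did not pass adjustment with DESeq2. In edgeR by title, Hspb7 had an adjusted p of 0.0486 without NPRC-/-ApoE-/- 1.

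The titles share the numbers 1 to 3, but no source says that a number marks a shared litter or day, and deviations of same-numbered libraries correlated at -0.27, -0.13 and -0.01. The replicate block left 1813 loci with an unadjusted p under 0.05, against 2651 in the same 6 libraries with no replicate block. Hspa8 was at -0.01 with the replicate block and at -0.04 without it, and Hspd1 at -0.00 without it. The number of libraries and their conflicting labels limit the precision, and each member locus had at least 895 counts per library.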

Other observations

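Outside the heat shock loci, the 5 named loci whose log2 CPM over the 8 libraries was most like the mean of the members (each locus scaled to its own mean and SD) were Ube2o, Mir6975, Fbxo21, Pccb and Rpusd3, with Pearson correlations of 0.954, 0.944, 0.93, 0.927 and 0.926. They were picked as the highest of all loci tested, over only 8 libraries that share their depth and tissue, so the values are a description. Ube2o, an enzyme that attaches ubiquitin to proteins, was at 8.90 FPKM in ApoE-/- 2 and at 5.74 to 6.87 FPKM in the other 7 libraries. Pccb, a subunit of mitochondrial propionyl-CoA carboxylase, was at 27.2 FPKM in ApoE-/- 2 and at 11.4 FPKM in ApoE-/- 3, the highest and the lowest of the 8 libraries. The summed brown fat markers were also highest and lowest there, though other libraries came close to ApoE-/- 2. By title the 5 loci had log2 fold changes of -0.27 to 0.02 and edgeR adjusted p of 0.851 or more.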
